A study of Rattus norvegicus with 12 samples.

Results

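Reference genes are genes whose mRNA is often taken as a fixed scale against which other mRNAs are measured, for example in quantitative PCR. The 4 common ones described here are Actb (identifier ENSRNOG00000034254), Gapdh (ENSRNOG00000018630), Ppia (ENSRNOG00000027864) and B2m (ENSRNOG00000017123). They were picked by identifier from a table of 25424 rat genes. Of the 4 identifiers, 3 had a row in the table, and 2 of these, Actb and Gapdh, were above 0 in all 12 libraries. The table lists genes by identifier without symbols, so the pairing of identifier with symbol is the one given with the list and could not be checked against the table.

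Actb encodes beta-actin, the cytoplasmic actin that builds the filaments of dendritic spines and growth cones. Its mRNA is known to be carried into neurites and translated there. Gapdh encodes glyceraldehyde-3-phosphate dehydrogenase, an enzyme of glycolysis. Ppia encodes cyclophilin A, a cytosolic prolyl isomerase and the binding partner of cyclosporin. B2m encodes beta-2-microglobulin, the light chain of MHC class I molecules. An mRNA used as a fixed scale between a ribosome pellet and total RNA has to be loaded with ribosomes to the same degree as the average mRNA, which is a different demand from a steady total level.

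The libraries came from primary cortical neurons of Sprague-Dawley rat embryos. At 27 days in vitro the cultures received 100 nM of a preparation of synthetic rat amyloid-β peptide (Aβ) that included oligomers, or vehicle, for 24 h. All cultures had been given the NMDA receptor blocker APV from day 4, and cycloheximide, which holds ribosomes on mRNA, for the last 10 min. Cleared lysate was sequenced as total RNA or after pelleting through a cushion of 20% sucrose (ribosome fraction), with 3 libraries in each of 4 groups: vehicle total (samples 4, 8 and 12), vehicle ribosome (2, 6 and 10), Aβ total (3, 7 and 11) and Aβ ribosome (1, 5 and 9). The study describes the libraries as biological replicates and the sequencing of both fractions as paired, but neither its text nor the labels say which libraries share a culture. The p-values measure the spread between these libraries. The neuronal label could not be checked, because no neuronal or glial marker could be matched to an identifier.

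Levels are given in FPKM, which are fragments scaled to transcript length and to the mapped fragments of the library, as deposited. Mapped fragments, worked out from the steps in which FPKM values fall, ranged from 14.1 M to 20.04 M per library. The 20 most abundant genes held between 19.5 and 28.7% of the recovered fragments of a ribosome library, against 8.87 to 9.61% of a total RNA library. For comparisons between libraries, FPKM were divided by a size factor, the median ratio of a library's genes to their geometric means. Ribosome libraries had factors of 0.827 to 0.982 and total RNA libraries of 1.07 to 1.16, without overlap. Scaled FPKM therefore express a gene relative to the typical gene of its library. Cells and RNA per cell cannot be told apart in such bulk libraries.

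Actb and Gapdh were both among the most abundant mRNAs, and Gapdh was the more abundant of the pair in 11 of 12 libraries. Mean FPKM over the 12 libraries was 1105 for Actb and 1344 for Gapdh, which placed them 34th and 26th of the 25424 genes. Their levels rest on 286471 and 351707 fragments in all. In single total RNA libraries Actb ranked between 24 and 30 and Gapdh between 23 and 26. The ranks spread more widely in the ribosome fraction, at 27 to 54 for Actb and 26 to 37 for Gapdh.

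The deposited level of Actb was 1134, 1056 and 1111 FPKM in vehicle total 4, 8 and 12, and 1096, 1059 and 1189 FPKM in Aβ total 3, 7 and 11. It was 1278, 1046 and 994 FPKM in vehicle ribosome 2, 6 and 10, and 1363, 946 and 993 FPKM in Aβ ribosome 1, 5 and 9. The 6 total RNA libraries thus lay close together, while the ribosome libraries lay on either side of them, with 2 above and 4 below every total RNA library. Group means were nearly equal, at 1100 ± 40.2 FPKM (SD, n = 3) in vehicle total, 1106 ± 151 in vehicle ribosome, 1115 ± 66.9 in Aβ total and 1101 ± 229 in Aβ ribosome. The 2 high ribosome libraries, Aβ 1 and vehicle 2, were also those with the fewest mapped fragments of all 12 (14.3 M and 14.1 M) and the smallest share of the 20 most abundant genes within the fraction (19.5 and 21.4%). The part of these measures in the Actb level was not tested.

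The deposited level of Gapdh was 1341, 1227 and 1337 FPKM in vehicle total 4, 8 and 12, and 1309, 1277 and 1430 FPKM in Aβ total 3, 7 and 11. In the ribosome fraction it was 1786, 1355 and 1126 FPKM in vehicle 2, 6 and 10, and 1361, 1355 and 1220 FPKM in Aβ 1, 5 and 9. One library stood out, vehicle ribosome 2, and the lowest of all was vehicle ribosome 10 of the same group. Means were 1302 ± 64.5 FPKM in vehicle total, 1422 ± 335 in vehicle ribosome, 1339 ± 80.4 in Aβ total and 1312 ± 79.3 in Aβ ribosome (SD, n = 3). Of the 6 ribosome libraries, 1 lay above, 2 below and 3 within the range of total RNA.

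On the scaled values the averages of both genes were higher in the ribosome fraction. Scaled Actb was 987, 911 and 1034 FPKM in vehicle total 4, 8 and 12, and 1442, 1265 and 1042 in vehicle ribosome 2, 6 and 10. With Aβ it was 961, 933 and 1098 in total 3, 7 and 11, and 1389, 1055 and 1084 in ribosome 1, 5 and 9. The fractions overlapped, since 3 of 6 ribosome libraries lay within the range of total RNA and 3 above it.

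Scaled Gapdh was 1168, 1059 and 1244 FPKM in vehicle total 4, 8 and 12, and 2016, 1640 and 1180 in vehicle ribosome 2, 6 and 10. With Aβ it was 1148, 1125 and 1320 in total 3, 7 and 11, and 1386, 1511 and 1332 in ribosome 1, 5 and 9. Here 5 of 6 ribosome libraries lay above all total RNA libraries, and vehicle ribosome 10 lay within their range. Between its highest and lowest ribosome library scaled Gapdh differed 1.71-fold, against 1.25-fold in total RNA, and scaled Actb differed 1.38-fold against 1.21-fold.

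**Figure D1:**
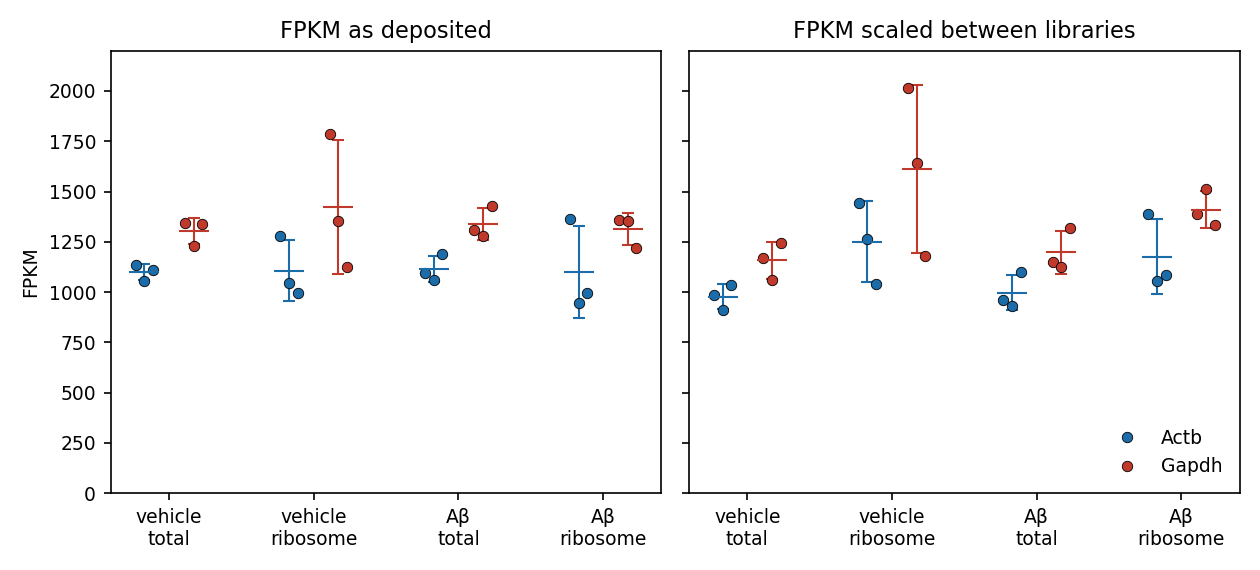
Level of Actb (blue) and Gapdh (red) in FPKM in each of the 12 libraries by group, as deposited (left) and after median-of-ratios scaling (right). Points are libraries, horizontal bars are means and error bars are SD (n = 3). As deposited the group means of Actb lie between 1100 and 1115 FPKM, and after scaling both genes are higher on average in the ribosome groups, with the widest spread in Gapdh of vehicle ribosome.

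ENSRNOG00000027864, the identifier given for Ppia, was almost without fragments. It was listed at 0 in 10 of 12 libraries, at 0.0820 FPKM in Aβ ribosome 9 and at 0.147 FPKM in Aβ total 11. These values correspond to 1 and 2 fragments, the smallest whole numbers that fit, on a model of 724 bases. The level that 3 fragments would give ranged from 0.207 to 0.294 FPKM across libraries, and both values lay under it. Levels that low can be missed in a library at this depth (counting error only). Cyclophilin A mRNA is abundant in nearly all cells, and the row is called by its identifier here. Whether the pairing with the symbol or the counting of reads gave these low values was not tested. Of the 25424 genes, 7771 (30.6%) were above 0 in at most 2 libraries and 5908 (23.2%) in none. Ppia, Gapdh and Actb have near-identical processed copies in rodent genomes, and how reads shared with such copies were counted is not given in the sources used here, so the levels of all 3 are uncertain to that extent. ENSRNOG00000017123, the identifier given for B2m, was not among the rows read and B2m is not analysed here. Both identifiers drop out of all that follows, and a mean FPKM of at least 1, the limit for testing, was passed by 2 of the 4, Actb and Gapdh.

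The first question was whether Actb and Gapdh mRNA were enriched or depleted on ribosomes relative to the typical mRNA. In vehicle, scaled Actb was 1.27-fold higher on average in the ribosome fraction than in total RNA (log2 difference 0.34, SE 0.19, 95% interval -0.09 to 0.78). Gapdh was 1.36-fold higher on average (log2 difference 0.45, SE 0.23, 95% interval -0.10 to 0.99). Neither passed the test, with adjusted p = 0.190 for Actb and 0.175 for Gapdh (limma on log2(scaled FPKM + 1), Benjamini-Hochberg over 12150 genes, threshold 0.05). Of all genes tested, 32.3% were called in this comparison, so that 0 of 2 reference genes is too few to read against it.

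With Aβ the averages were closer. Actb was 1.17-fold higher on average in the ribosome fraction (log2 difference 0.23, SE 0.17, 95% interval -0.17 to 0.62) and Gapdh 1.18-fold (0.24, SE 0.16, 95% interval -0.12 to 0.60). Neither passed, with limma adjusted p = 0.309 and 0.254, while 41.1% of all genes tested were called. The intervals reach from slightly lower to 1.54-fold higher for Actb and 1.51-fold higher for Gapdh, so a difference of that size between fractions is not excluded by these libraries.

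Both calls in vehicle turned on a single library and on the weighting. Without vehicle ribosome 10, the library with the lowest scaled Actb and Gapdh of its fraction, the log2 difference was 0.47 for Actb and 0.65 for Gapdh, and both passed (limma adjusted p = 0.0453 and 0.0229), while leaving out any of the other 5 libraries left both uncalled. With limma array weights, which give less weight to libraries far from their group, both passed as well, at log2 differences of 0.36 and 0.49 (adjusted p = 0.00668 and 0.0027). Those weights called 70.3% of all genes tested, and 43.2% were called without vehicle ribosome 10, against 32.3% in the fit above. Passing in these fits is therefore no trait of the 2 reference genes. On FPKM as deposited neither gene was called, and the log2 differences between fractions were -0.00032 in vehicle and -0.036 with Aβ for Actb, and 0.10 and -0.029 for Gapdh. That scale moves the median log2 difference of all genes tested to -0.30 in vehicle and -0.23 with Aβ. The averages of both reference genes stood above that median. Reading them against it nearly repeats the median-of-ratios scaling, so it is no separate support.

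The second question was whether Aβ changed the reference genes. In total RNA the average difference from vehicle was small for both genes, 1.02-fold for Actb (log2 difference 0.03, SE 0.17, 95% interval -0.34 to 0.39) and 1.03-fold for Gapdh (0.05, SE 0.19, 95% interval -0.37 to 0.46). In the ribosome fraction the averages with Aβ were 0.942 times those with vehicle for Actb (log2 difference -0.09, SE 0.17, 95% interval -0.45 to 0.28) and 0.894 times for Gapdh (-0.16, SE 0.19, 95% interval -0.58 to 0.25). These intervals come from 1 fit that shares its spread over both fractions, although the SD of both genes within groups was larger in the ribosome fraction. In separate fits of each fraction, the 95% intervals in total RNA were -0.21 to 0.26 for Actb and -0.20 to 0.30 for Gapdh. Those in the ribosome fraction were -0.63 to 0.45 for Actb and -0.77 to 0.44 for Gapdh. No adjusted p for either gene was under 0.99 (limma). In these comparisons 0.0% of all genes tested were called, and an unadjusted p under 0.05 was reached by 178 genes for the ribosome libraries and by 20 for the total RNA libraries (120 and 15 with voom weights, which also called 0). In separate fits of each fraction the order was reversed, with 46 genes for the ribosome libraries and 168 for the total RNA libraries. That order thus depends on whether the spread is shared, and it is not read as a difference between fractions. Over all alternatives these numbers ran from 46 to 1606 and from 4 to 377. Without vehicle ribosome 10 the first was 1606, and with array weights they were 852 and 377. The alternatives called 0 genes as well, except for 1 gene in total RNA without a filter on low values and 1 without vehicle total 8.

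Neighbouring sample numbers of Aβ and vehicle deviated together within each fraction, with r from 0.406 to 0.699 over the 3 ribosome pairs and from 0.413 to 0.543 over the 3 total RNA pairs. A block for these pairs was added to the shared fit after the data were seen. It left the averages as they were. In the ribosome fraction the 95% intervals of that fit narrowed to -0.35 to 0.18 for Actb and -0.52 to 0.19 for Gapdh. In total RNA the intervals were then -0.24 to 0.29 for Actb and -0.31 to 0.40 for Gapdh. Neither gene was called (limma adjusted p = 0.773 and 0.718 in the ribosome fraction and 1.0 for both in total RNA), and 627 and 102 of all genes had an unadjusted p under 0.05, with 0 called.

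Whether the gap between the fractions depended on treatment was tested as an interaction, and neither gene was called. The interaction was -0.11 on the log2 scale for Actb (SE 0.24, 95% interval -0.63 to 0.40) and -0.21 for Gapdh (SE 0.27, 95% interval -0.80 to 0.38), with limma adjusted p of 1.0 for both after rounding. Again 0.0% of all genes tested were called, with 84 at an unadjusted p under 0.05 (64 with voom weights, 613 without vehicle ribosome 10, 883 with array weights and 309 with the block for pairs). Without a filter on low values, and without vehicle total 8, 1 gene was called. As ratios, the intervals of the interaction ran from 0.646 to 1.32 for Actb and from 0.575 to 1.30 for Gapdh, and with the block from 0.713 to 1.197 and from 0.610 to 1.22. Single libraries moved the interaction of Actb between -0.0045, without vehicle ribosome 2, and -0.24, without Aβ ribosome 1 or vehicle ribosome 10. They moved that of Gapdh between -0.032, without vehicle ribosome 2, and -0.42, without vehicle ribosome 10. Neither gene was called in any of these fits.

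**Figure D2:**
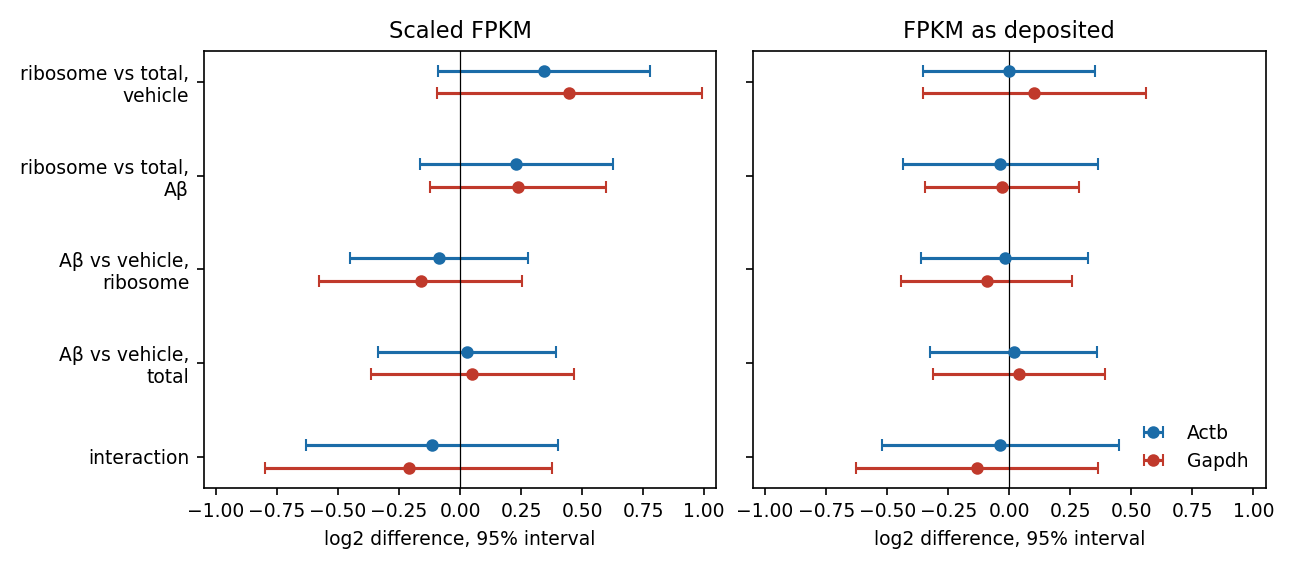
Log2 difference of Actb (blue) and Gapdh (red) with 95% intervals in the 5 comparisons, on scaled FPKM (left) and on FPKM as deposited (right). All intervals cross 0, and the 4 between fractions lie nearer to 0 on the deposited values.

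The ratio of Gapdh to Actb within a library does not depend on any scaling between libraries, and its spread differed between the fractions. In total RNA the log2 ratio was 0.24, 0.22 and 0.27 in vehicle 4, 8 and 12, and 0.26, 0.27 and 0.27 in Aβ 3, 7 and 11. All 6 ratios thus fell between 1.16 and 1.21, with a pooled SD within groups of 0.018 on the log2 scale, against a counting error of 0.012 to 0.013 for each.

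In the ribosome fraction the same log2 ratio was 0.48, 0.37 and 0.18 in vehicle 2, 6 and 10, and -0.0028, 0.52 and 0.30 in Aβ 1, 5 and 9. Gapdh thus went from level with Actb in Aβ ribosome 1 to 1.43 times Actb in Aβ ribosome 5, the extremes being libraries of the same group. The pooled SD was 0.21, or 11.8 times that in total RNA, with a counting error of 0.012 to 0.014. The difference in SD of 0.20 was the largest among the 400 ways of exchanging fraction labels within treatments (exact permutation test, two-sided, p = 0.005, the smallest it can give). That test was chosen after the ratios had been seen. With each library left out in turn the difference ranged from 0.14 to 0.23.

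Few genes kept so constant a ratio to Actb in total RNA. Of the other 11983 genes above 0 in every library and tested, 9 (0.0751%) had a smaller SD of their ratio to Actb than Gapdh, and the median SD was 0.15. In the ribosome fraction 16.0% of these genes had a smaller SD than Gapdh, and the median was 0.37. Seen from Gapdh the shares with a smaller SD than Actb were the same 0.0751% in total RNA and 16.4% in the ribosome fraction. Genes with few fragments have a larger counting error and so a larger SD by this measure.

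No difference in the mean ratio passed the test. The mean log2 ratio of ribosome libraries minus that of total RNA libraries was 0.06 (exact permutation test, two-sided, 400 relabellings, p = 0.585), and that of Aβ minus vehicle was -0.03 (p = 0.78). Of the 6 planned pairs of reference genes only this pair had values, so no adjustment over pairs was needed.

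**Figure D3:**
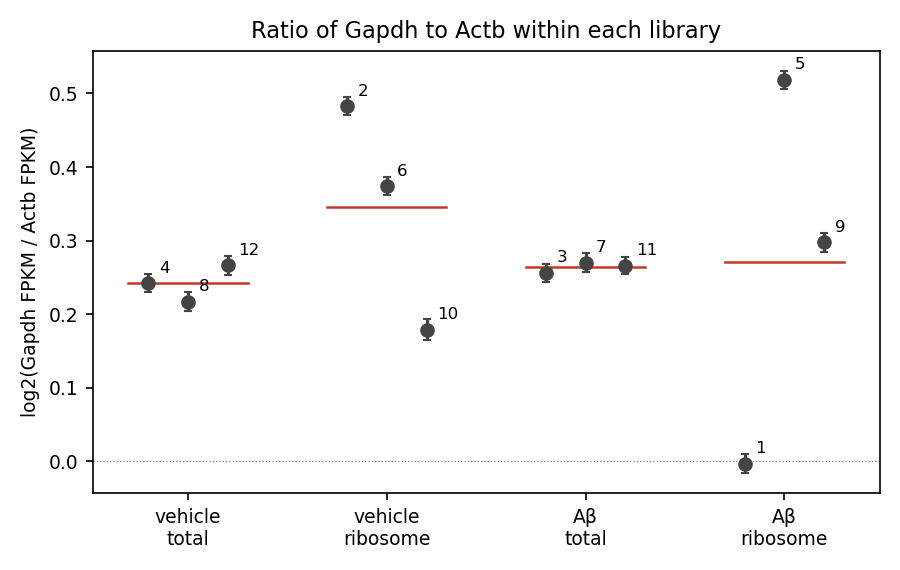
Log2 ratio of Gapdh to Actb FPKM in each library by group, with the sample number beside each point. Error bars are the standard error from counting alone and red lines are group means. The 6 total RNA libraries lie between 0.22 and 0.27, and the 6 ribosome libraries between -0.0028 and 0.52.

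Within groups, neither gene was unusually steady among all genes tested. In total RNA the SD of log2(scaled FPKM + 1) within groups was 0.11 for Actb and 0.12 for Gapdh, and 43.5 and 50.3% of the 12150 genes tested had a smaller one. In the ribosome fraction it was 0.23 for Actb and 0.28 for Gapdh, with 36.2 and 51.0% of genes below. The reference genes thus sat near the middle of all genes, whose median SD was 0.12 in total RNA and 0.28 in the ribosome fraction. Counting error is no limit here, since it would give an SD of only 0.0084 to 0.0096.

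On FPKM as deposited the SD in total RNA was smaller for both genes, at 0.071 for Actb and 0.079 for Gapdh. In the ribosome fraction it was 0.24 for both, slightly above the scaled value for Actb and below it for Gapdh. The spread of all genes on the deposited scale is not given here, so these SDs have no rank among genes. The SD of Gapdh in the ribosome fraction was 0.14 without vehicle ribosome 10, in place of 0.28. Over all 12 libraries and both fractions, the SD was 0.22 for Actb and 0.26 for Gapdh, with 23.4 and 36.6% of genes below and a median of 0.32. Among the 846 genes with a mean over 100 FPKM, 17.3% were steadier than Actb and 29.1% steadier than Gapdh by that measure. Within groups, the share of these abundant genes steadier than Actb and Gapdh was 53.2 and 60.9% in total RNA and 30.5 and 49.3% in the ribosome fraction.

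**Figure D4:**
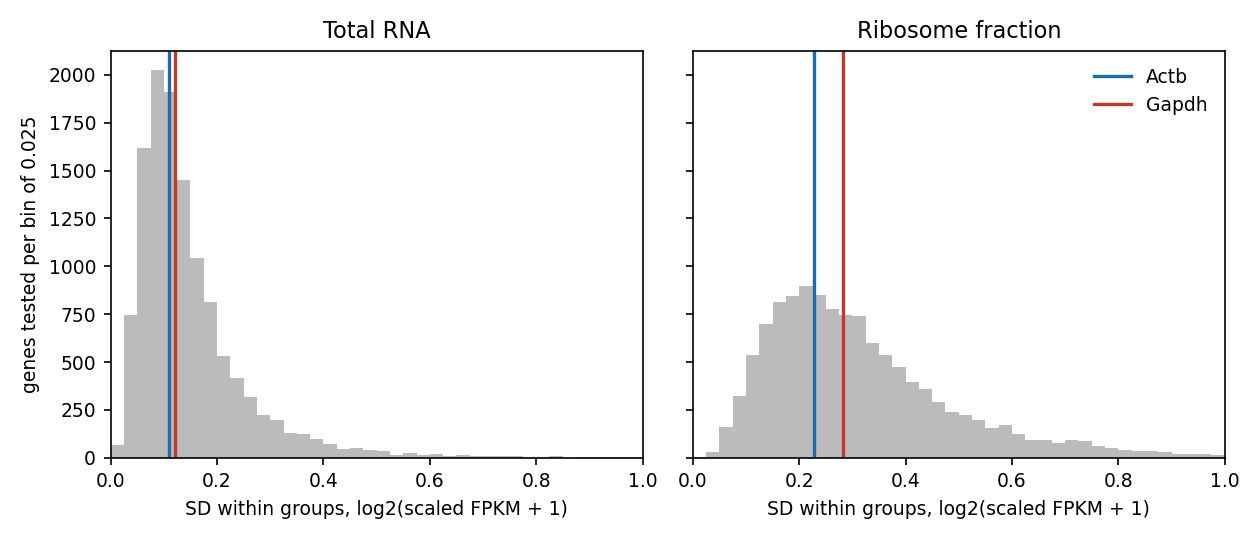
Number of genes tested by the SD of log2(scaled FPKM + 1) within groups, in bins of 0.025, for total RNA (left) and the ribosome fraction (right). Vertical lines mark Actb (blue, 0.11 and 0.23) and Gapdh (red, 0.12 and 0.28), which fall in the body of both distributions, and SDs above 1 lie off the axis.

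Over the 12 libraries, log2(scaled FPKM + 1) of Actb and Gapdh had a Pearson r of 0.859 with each other. The gene most like Actb was ENSRNOG00000000909 (r = 0.956), which averaged 10.4 scaled FPKM in vehicle total, 15.3 in vehicle ribosome, 10.97 in Aβ total and 13.8 in Aβ ribosome. The gene most like Gapdh was ENSRNOG00000026109 (r = 0.984), at 88.0, 119.7, 89.8 and 109.3 scaled FPKM in the same order. These are descriptions over libraries that share fraction and size factor, and no symbol could be paired with either identifier.

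The last comparison asked how the count of genes that differ between fractions depends on which reference gene sets the scale. Each library was divided by its own Actb or Gapdh in place of the size factor, which fixes that gene at no change, and limma was run as before. All other genes then move by nearly the same amount, set by the scaling gene's own difference between fractions, which did not pass the test. The median log2 difference of all genes went from 0.00034 under median of ratios to -0.29 under Actb and -0.38 under Gapdh in vehicle, and from 0.0020 to -0.19 and -0.20 with Aβ. The balance of directions given below follows from this shift. In vehicle, median-of-ratios scaling called 3925 genes, 1932 higher and 1993 lower in the ribosome fraction. Scaling by Actb called 3844 genes (31.6%), of which 870 were higher and 2974 lower. Scaling by Gapdh called 2942 (24.2%), with 431 higher and 2511 lower. The geometric mean of Actb and Gapdh, tried after the data were seen, called 3432 (28.2%), with 639 higher and 2793 lower.

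With Aβ, median-of-ratios scaling called 4993 genes, 2385 higher and 2608 lower. Scaling by Actb called 3649 (30.0%), with 599 higher and 3050 lower, scaling by Gapdh 4648 (38.3%), with 1087 higher and 3561 lower, and their geometric mean 4539 (37.4%), with 955 higher and 3584 lower. The share of calls that were higher was 49.2% in vehicle and 47.8% with Aβ under median of ratios, 22.6 and 16.4% under Actb, and 14.6 and 23.4% under Gapdh. FPKM as deposited gave 20.1 and 21.7%.

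The genes themselves overlapped in part. Of the genes called under Actb scaling, 2863 in vehicle and 3191 with Aβ were also called under median-of-ratios scaling, and under Gapdh scaling 2287 and 3695 were.

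These counts moved widely when a library was left out, most of all under Gapdh in vehicle, where they ranged from 162 to 5947. Under Gapdh scaling 3484, 386 and 5947 genes were called without vehicle ribosome 2, 6 and 10. Without vehicle total 4, 8 and 12 they were 364, 162 and 402. Under Actb scaling the counts were 4598, 1991 and 5427 without vehicle ribosome 2, 6 and 10. They were 1417, 1366 and 1575 without vehicle total 4, 8 and 12. Median-of-ratios scaling moved too, to 4852, 2562 and 5253 without vehicle ribosome 2, 6 and 10. Without vehicle total 4, 8 and 12 it gave 1712, 1847 and 1867. With Aβ, leaving out total 3, 7 and 11 gave 3025, 3140 and 3189 under median of ratios. The same gave 2052, 2024 and 2542 under Actb and 2734, 2812 and 3612 under Gapdh. Leaving out Aβ ribosome 1, 5 and 9 gave 4765, 3837 and 5816 under median of ratios. It gave 4273, 2740 and 3992 under Actb and 4382, 3431 and 5121 under Gapdh.

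**Figure D5:**
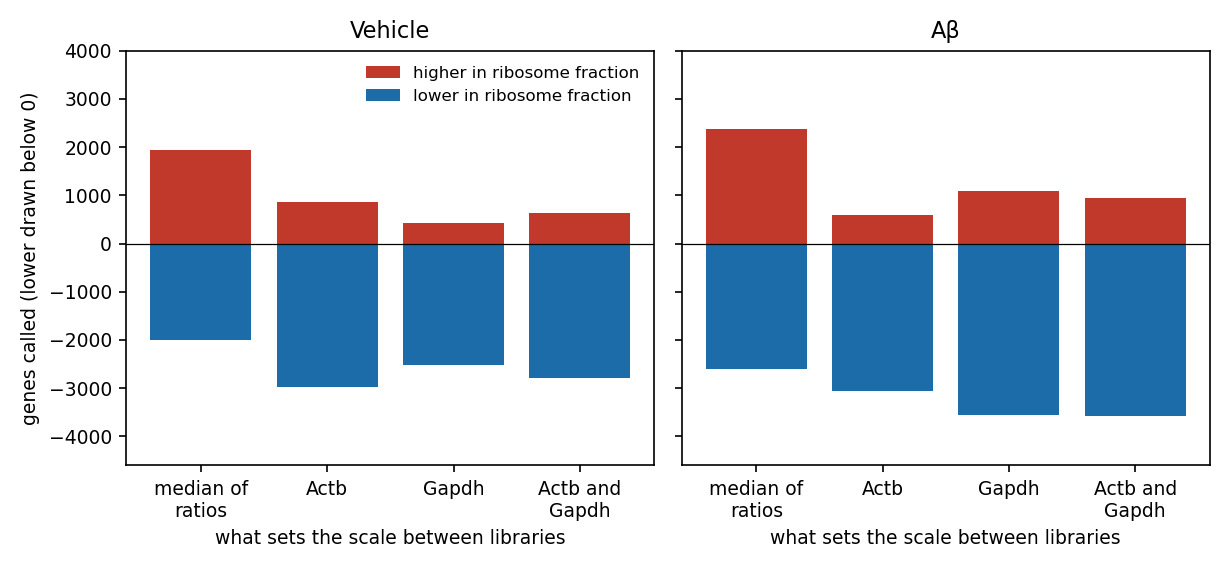
Genes called between fractions (limma, adjusted p under 0.05) in vehicle (left) and with Aβ (right), by what sets the scale between libraries. Red bars above 0 count genes higher in the ribosome fraction and blue bars drawn below 0 count genes lower. The red bars are shorter under every reference gene scaling than under median of ratios, for example 431 against 1932 under Gapdh in vehicle.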

How the data were processed

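RNA of 12 libraries was analysed. Per the labels and the study's methods, the authors made polyadenylated mRNA libraries, used a more efficient bead capture for 3 unnamed samples, aligned paired-end reads with TopHat 2.0.12 on a Bowtie 2.2.3 index and counted fragments with HTSeq 0.6.1 in union mode. They deposited FPKM per library, unpooled and not scaled between libraries. Genome build, annotation version and strand setting are not given in the sources used here. One incomplete row was left out.

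The 25424 rows were matched by identifier. Fragments were recovered from the FPKM steps (tolerance 0.003). Each library's FPKM were scaled by its median-of-ratios size factor. Genes averaging 1 FPKM or more (12150) entered limma 3.58.1 (R 4.3.3) as log2(scaled FPKM + 1), using lmFit and eBayes with a trend, and p-values were adjusted by Benjamini-Hochberg (threshold 0.05). Fractions were compared within each treatment in fits of 6 libraries, and Aβ with vehicle and the interaction in 1 fit of 12. Ratios used exact permutation tests in Python 3.11.15 with numpy 2.4.6. Depth was 14.1 M to 20.04 M mapped fragments per library, and intervals from counting cover counting error only.

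On simulated data, limma recovered 89.0% of 100 changed genes in vehicle, 90.5% of 200 with Aβ and 33.0% of 100 by the interaction, among 12150 genes, and 6.32, 7.65 and 8.33% of its calls were unchanged genes. All changes had the same fixed size. Spread beyond counting was the same in both fractions, and neighbouring samples shared no deviation. In the real libraries the median SD was 0.28 in the ribosome fraction and 0.12 in total RNA. The simulated shares therefore do not give the recovery in the real libraries.

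The genes and lists were chosen with earlier results of these data known. Named genes were the 4 members and, for each, the tested gene with the highest Pearson r. The 10 lists planned beside them (87 symbols: reference, glycolysis, actin, cyclophilin and MHC class I genes, and cell type markers) were not used, because 0 of 23702 Ensembl identifiers matched the RefSeq table.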

Additional observations from a re-analysis of the deposited data

How the results depend on the processing

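Of 200 recomputed log2 differences of Actb and Gapdh, 187 kept their direction and their side of the threshold, 4 newly passed it and 9 changed sign, none of them past the threshold. Many of the 200 could not change direction. For example, the difference of Aβ from vehicle in a fraction stays the same when a library of the other fraction is left out. The count of 187 is therefore no measure of robustness. On FPKM as deposited the difference between fractions was -0.00032 for Actb in vehicle, and -0.036 for Actb and -0.029 for Gapdh with Aβ. With limma array weights, added after the data were seen, the vehicle differences were 0.36 for Actb and 0.49 for Gapdh. With each library left out, the difference between fractions in vehicle ranged from 0.23 to 0.47 for Actb and from 0.27 to 0.65 for Gapdh, and with Aβ from 0.10 to 0.30 and from 0.19 to 0.31. The difference of Aβ from vehicle then ranged in the ribosome fraction from -0.21 to 0.023 for Actb and from -0.37 to 0.017 for Gapdh, with positive values without vehicle ribosome 2. The interaction ranged from -0.24 to -0.0045 for Actb and from -0.42 to -0.032 for Gapdh. In total RNA the difference of Aβ from vehicle ranged from -0.044 to 0.074 for Actb and from -0.023 to 0.10 for Gapdh. The negative values were -0.044 and -0.023 without Aβ total 11, and -0.022 and -0.013 without vehicle total 8.

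The mean log2 ratio of Gapdh to Actb between fractions ranged from -0.0068, without Aβ ribosome 5, to 0.12, and between treatments from -0.088 to 0.042, with positive values of 0.042 without Aβ ribosome 1 and 0.0082 without vehicle ribosome 2. The SD of log2 values on deposited FPKM was 0.071 for Actb and 0.079 for Gapdh in total RNA. That of Gapdh in the ribosome fraction ranged from 0.14 to 0.33 with each library left out. Counts of genes between fractions with each library left out, also added later, ranged under Actb scaling from 1366 to 5427 in vehicle and from 2024 to 4273 with Aβ, and under Gapdh scaling from 162 to 5947 and from 2734 to 5121. The cause was not tested.

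A replicate block for the runs of 4 neighbouring sample numbers gave adjusted p = 0.417 for Actb and 0.332 for Gapdh in vehicle (limma) and changed no call of either gene. The study calls the sequencing of the fractions paired without naming the pairs, so taking the runs as pairs is an assumption. Samples of the same run deviated together within a fraction (mean r 0.541 in ribosome and 0.489 in total RNA), while the mean r between fractions was -0.072. A replicate block for runs within each fraction, added later, left the log2 differences of Aβ from vehicle unchanged and changed no call of Actb or Gapdh (lowest adjusted p 0.718). Scaling by Ppia, by B2m or by all 4 genes and the other 5 pairwise ratios were not run, since those rows gave no usable values. With 3 libraries a group, the intervals of Actb and Gapdh are set by the spread between libraries and not by depth.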
